A study of Mus musculus with 24 samples.

Results

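The 10 genes described here, Spi1, Cebpa, Cebpb, Cebpd, Cebpe, Gfi1, Irf8, Klf4, Runx1 and Id2, encode transcription regulators of the myeloid lineages and were taken as a list of symbols. They and the other gene lists below were chosen with earlier results of these data known. Their counts beside all genes are therefore descriptions, not tests of an independent set. All 10 were on the array, with 11 probes, out of 32451 genes or transcripts and 39429 probes. Runx1 had 2 probes and every other gene had 1. Of the 10, every gene was well above background on all 22 arrays by its brightest probe.

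The study profiled CD11b+ cells from spleen and bone marrow of mice after acute myocardial infarction (MI), with 1 one-colour (Cy3) Agilent array for each condition. Wild-type (WT), HDC-KO (histidine decarboxylase) and STAT6-KO mice, male by the labels and Balb/C mice of 10 weeks by the study's methods, were sampled as controls or 1, 2 or 4 weeks after MI. RNA on each array came from cells pooled from 5 mice, so no condition had a second array, and p-values measure the spread between pools of different genotype or time. Of 24 arrays, 22 were complete and were used: 11 of spleen (WT 4, HDC-KO 3, STAT6-KO 4) and 11 of bone marrow (WT 4, HDC-KO 4, STAT6-KO 3). The HDC-KO spleen control and the STAT6-KO bone marrow array at 1 week held only 229 and 84 spots, and neither entered any comparison. The number of arrays limits the precision. The WT arrays at 1 week had the smallest shares of spots well above background, 70.4% in spleen and 71.3% in bone marrow, where the others had 75.1% to 79.8%. Each slide held 1 genotype in 1 tissue, and the 4 positions on a slide held control, 1, 2 and 4 weeks, so slide and genotype or tissue, and position and time, cannot be told apart.

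Spi1 encodes PU.1 and Runx1 a core binding factor, both needed early in blood cell formation. Cebpa, Cebpb, Cebpd and Cebpe encode C/EBP proteins, of which C/EBPα acts at the entry to the granulocyte and monocyte lineages and C/EBPε in the later maturation of granulocytes, with the repressor Gfi1. Irf8 and Klf4 act in monocyte and dendritic cell development, and Id2 inhibits E proteins and is needed for several dendritic and innate lymphoid lineages.

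The labels were checked against the data first. Levels are given throughout as log2 signal minus the 75th percentile of the array. Hdc stood at 1.67 to 2.78 on the 7 HDC-KO arrays and at 4.12 to 5.51 on the other 15. Of the 3 Stat6 probes, the 2 dimmer ones stood at -1.11 to -0.29 and at -1.72 to -0.27 on the other 6 STAT6-KO arrays, but at 0.73 and 0.20 on the array labelled STAT6-KO spleen, 4 weeks, which is within the WT ranges of 0.05 to 1.29 and -0.43 to 1.99. On the brightest Stat6 probe that array stood at 2.12, the STAT6-KO arrays at 1.76 to 2.44 and the WT arrays at 2.38 to 3.70. All arrays were labelled male. The Y-linked genes Ddx3y and Eif2s3y were above background on all 22 arrays, and Kdm5d, also Y-linked and dim, on 10, of which 1 was HDC-KO. Ddx3y stood at -2.48 to -1.15 on the HDC-KO arrays and at -1.35 to 0.14 on the others. Of the 2 probes of Xist, the RNA that coats an inactive X, 1 was above background on all 7 HDC-KO arrays (-1.81 to -0.74) and on the STAT6-KO controls of spleen (-2.06) and bone marrow (-3.18), and stood at -7.85 or lower on the other 13. The second Xist probe, with the higher mean, stood at -4.12 to -2.05 on those 9 arrays and at -7.31 to -5.08 on the other 13, of which 9 were above background. The arrays were kept as labelled, and what these values mean for the animals in each pool was not tested.

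The gate marker Itgam (CD11b) and its partner Itgb2 were above background on every array. Their summed level, in units of the array's 75th percentile, was 18.9 to 42.7 over the spleen arrays (median 26.3) and 52.2 to 81.6 over the bone marrow arrays (median 72.3), with Itgam the brighter, and both were called lower in spleen. B cell and natural killer cell markers were also present, and their values follow the tissue comparison.

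The question of the first comparison was how CD11b+ cells of spleen differ from those of bone marrow, over the 10 pairs of arrays that share genotype and time. Of the 10 genes, 9 passed an adjusted p of 0.05, where 54.5% of all genes tested did (15064 of 27659). Cebpe, Gfi1, Spi1, Cebpd, Cebpa and Cebpb were lower in spleen (6 genes, against 32.1% of all genes tested), and Klf4, Irf8 and Id2 were higher (3 genes, against 22.4%). The median difference of the 10 was -0.47, beside -0.17 over all genes tested. Under quantile normalization that all-gene median was -0.05, so differences are also given by their percentile among all genes tested. Without the pairs of each genotype in turn, an alternative chosen after the data were seen, 7 of the 10 passed this comparison in each case.

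**Figure D1:**
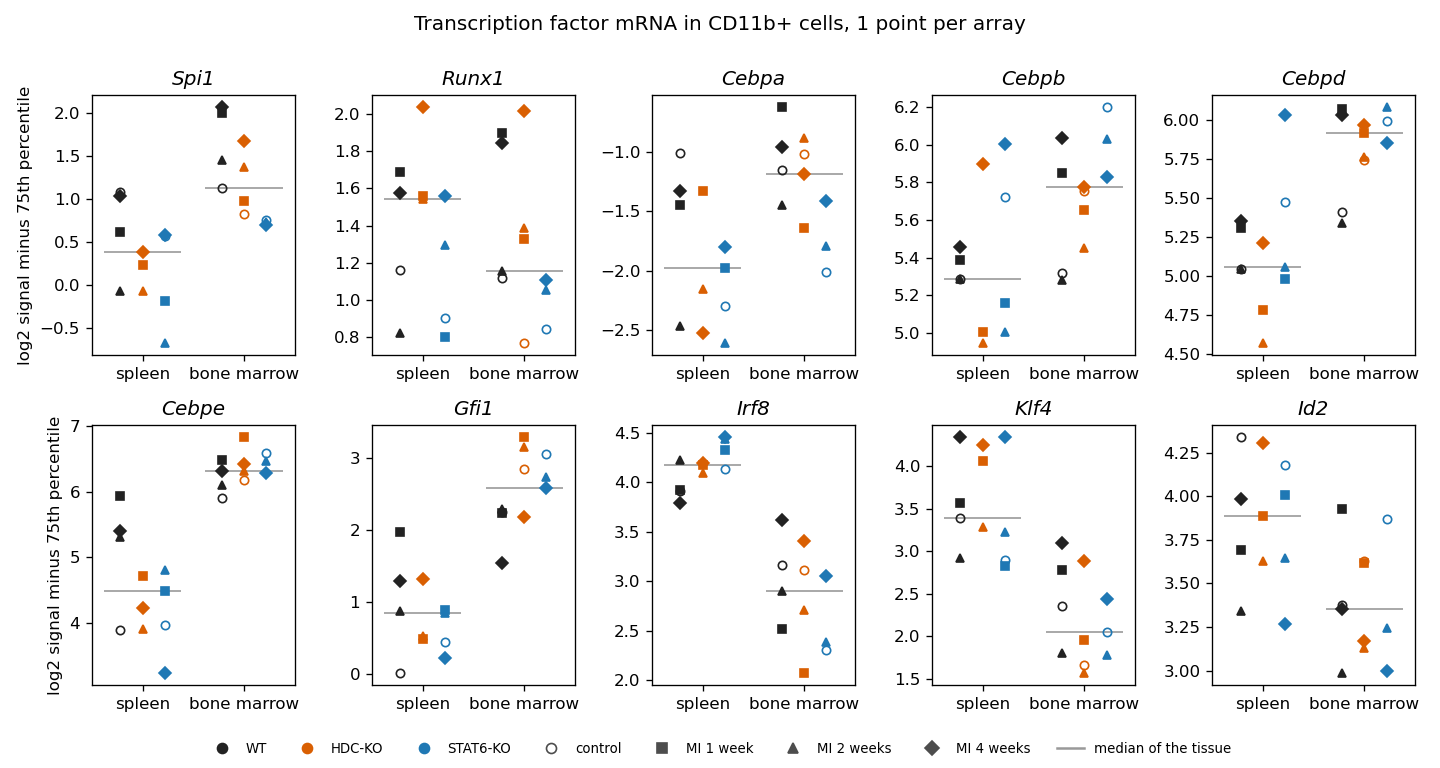
Level of each gene (log2 signal minus the array's 75th percentile, vertical axis) on the 22 complete arrays of CD11b+ cells by tissue, 1 point per array, coloured by genotype and shaped by time, with a grey line at the median of the tissue. Irf8 did not overlap between the tissues (3.79 to 4.46 in spleen, 2.07 to 3.62 in bone marrow), and the median of Cebpe was 4.49 in spleen and 6.31 in bone marrow.

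Cebpe, the granulocyte maturation factor, ranged from 3.24 to 5.93 in spleen (median 4.49) and from 5.90 to 6.83 in bone marrow (median 6.31). The WT spleen array at 1 week alone reached the bone marrow range. Paired, Cebpe was 3.54-fold lower in spleen (log2 difference -1.82 ± 0.24 SE, adjusted p = 5.74e-05, lower in 10 of 10 pairs, percentile 3.03). Gfi1, the repressor that limits monocyte genes in granulocyte precursors, ranged from 0.01 to 1.96 in spleen (median 0.85) and from 1.54 to 3.29 in bone marrow (median 2.58). Of the spleen arrays, WT at 1 week again lay within the bone marrow range. Gfi1 was 3.32-fold lower in spleen (log2 difference -1.73 ± 0.28 SE, adjusted p = 0.000254, lower in 10 of 10 pairs, percentile 3.49). In an exact two-sided sign-flip test over the pairs, Cebpe and Gfi1 each had p = 0.00195, the smallest that 10 pairs can give.

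Cebpa, Cebpb and Cebpd differed less. Cebpd, a C/EBP gene induced in granulocytes and in inflammation, ranged from 4.57 to 6.03 in spleen (median 5.06) and from 5.34 to 6.08 in bone marrow (median 5.92), a log2 difference of -0.65 ± 0.14 SE (adjusted p = 0.00173, lower in 9 of 10 pairs, percentile 23.7). The array labelled STAT6-KO spleen, 4 weeks (6.03) stood above the other spleen arrays, which reached 5.47 at most. Cebpa ranged from -2.62 to -1.01 in spleen (median -1.98) and from -2.01 to -0.62 in bone marrow (median -1.18), a log2 difference of -0.59 ± 0.17 SE (adjusted p = 0.0126, lower in 8 of 10 pairs, percentile 26.5), a call lost without the WT pairs (adjusted p = 0.0637) or the STAT6-KO pairs (adjusted p = 0.0533). Cebpb, a C/EBP gene of emergency granulopoiesis and macrophages, ranged from 4.94 to 6.0 in spleen (median 5.29) and from 5.28 to 6.20 in bone marrow (median 5.78). Its log2 difference was -0.34 ± 0.13 SE (adjusted p = 0.0430, lower in 7 of 10 pairs, percentile 39.6), and the call was lost under several settings, among them median scaling (-0.26, adjusted p = 0.0854) and the percentile taken over probes detected on all arrays (adjusted p = 0.126). The exact two-sided p over the pairs was 0.00391 for Cebpd, 0.0156 for Cebpa and 0.0273 for Cebpb.

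Spi1, whose product PU.1 drives both granulocyte and monocyte fates, ranged from -0.68 to 1.09 in spleen (median 0.38) and from 0.69 to 2.07 in bone marrow (median 1.13). It was 1.89-fold lower in spleen (log2 difference -0.92 ± 0.18 SE, adjusted p = 0.00109, lower in 10 of 10 pairs, percentile 14.7, exact two-sided p = 0.00195). The tissues overlapped, with the 2 highest spleen values in the WT control (1.09) and WT at 4 weeks (1.03). For Runx1 the 2 tissues overlapped almost fully, from 0.80 to 2.04 in spleen (median 1.54) and from 0.77 to 2.02 in bone marrow (median 1.16). Its difference was 0.04 ± 0.10 SE with a 95% interval of -0.18 to 0.26 (adjusted p = 0.772, higher in 7 of 10 pairs), and its sign changed under normexp background correction (-0.02) and the mean over its probes (-0.14). The second, dimmer Runx1 probe gave -0.32 ± 0.14 SE (adjusted p = 0.0634), and neither probe was called in any comparison.

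Irf8, a factor of monocytes and dendritic cells that restrains granulocyte output, did not overlap between tissues. It ranged from 3.79 to 4.46 in spleen (median 4.18) and from 2.07 to 3.62 in bone marrow (median 2.91), and was 2.50-fold higher in spleen (log2 difference 1.32 ± 0.18 SE, adjusted p = 8.45e-05, higher in 10 of 10 pairs, percentile 93.1). Of all genes compared, 14.4% (3976 of 27626) did not overlap between tissues. Klf4, needed for Ly6C-high monocytes, ranged from 2.83 to 4.35 in spleen (median 3.39) and from 1.57 to 3.10 in bone marrow (median 2.05). It was 2.57-fold higher in spleen (log2 difference 1.36 ± 0.14 SE, adjusted p = 1e-05, higher in 10 of 10 pairs, percentile 93.4). The tissues overlapped in the 3 lowest spleen arrays and the 2 highest bone marrow arrays, HDC-KO (2.89) and WT (3.10) at 4 weeks. Id2, which overlapped widely, ranged from 3.27 to 4.34 in spleen (median 3.89) and from 2.99 to 3.93 in bone marrow (median 3.35), a log2 difference of 0.46 ± 0.13 SE (adjusted p = 0.0101, higher in 9 of 10 pairs, percentile 79.5), a call lost without the HDC-KO pairs (adjusted p = 0.0598). Exact two-sided p-values over the pairs were 0.00195 for Irf8 and Klf4 and 0.00391 for Id2.

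**Figure D2:**
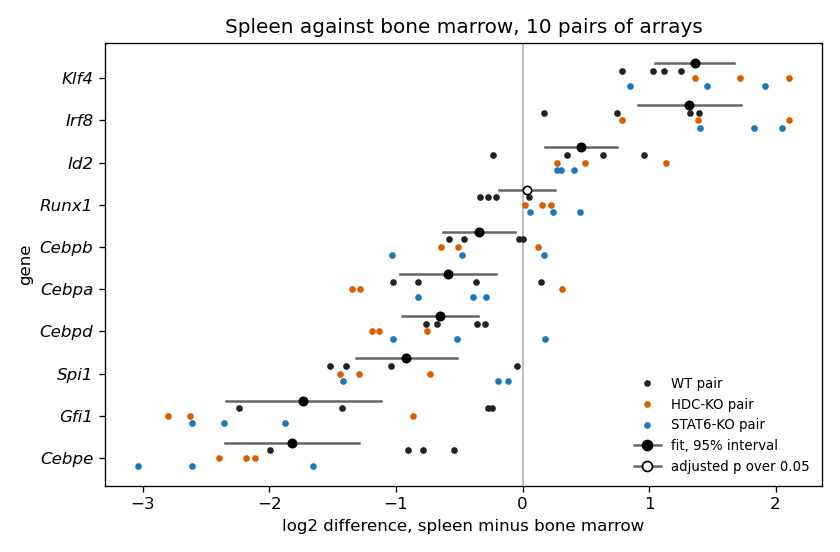
Spleen minus bone marrow (log2 difference, horizontal axis) for each gene, with 1 coloured point per pair of arrays by genotype (10 pairs) and the fitted value with its 95% interval in black, open where adjusted p was over 0.05. Klf4 (1.36) and Irf8 (1.32) lay on 1 side of 0 in every pair and Cebpe (-1.82), Gfi1 (-1.73) and Spi1 (-0.92) on the other, while the interval of Runx1 held 0.

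Within each genotype, the tissue difference of Cebpe averaged -1.06 ± 0.64 (SD, n = 4 pairs) in WT, -2.23 ± 0.15 (n = 3) in HDC-KO and -2.44 ± 0.71 (n = 3) in STAT6-KO. Gfi1 gave -1.05 ± 0.97, -2.10 ± 1.07 and -2.28 ± 0.37 in the same order. Klf4 gave 1.05 ± 0.20, 1.73 ± 0.37 and 1.41 ± 0.54, and Irf8 gave 0.91 ± 0.57, 1.42 ± 0.66 and 1.76 ± 0.33. The STAT6-KO means include the array labelled STAT6-KO spleen, 4 weeks, whose Cebpe pair was the lowest in that genotype (-3.04). The difference of these tissue differences between genotypes was tested over the 20 paired arrays, with no term for tissue by time. Genotypes were thus not matched by time: HDC-KO had no control pair and STAT6-KO no pair at 1 week, while WT had all 4. Within WT the Cebpe tissue difference ran from -1.99 to -0.54 over the 4 pairs. For STAT6-KO against WT, 0 of the 10 genes passed in limma, where 0.347% of all genes tested did, and 1 had an unadjusted p under 0.05 (13.7% of all genes did), Cebpe (-1.38 ± 0.41 SE, adjusted p = 0.182). Gfi1 stood at -1.24 ± 0.59 SE (adjusted p = 0.40) and Irf8 at 0.85 ± 0.39 SE (adjusted p = 0.382), and Spi1, Runx1, Cebpa, Cebpb, Cebpd, Klf4 and Id2 had adjusted p of 0.408 or more. For HDC-KO against WT, 0 passed, where 0.991% of all genes tested did, and 2 had an unadjusted p under 0.05 (14.9% of all genes did), Cebpe (-1.18 ± 0.41 SE, adjusted p = 0.225) and Klf4 (0.68 ± 0.30 SE, adjusted p = 0.329). The other 8, Spi1, Runx1, Cebpa, Cebpb, Cebpd, Gfi1, Irf8 and Id2, had adjusted p of 0.455 or more. Of the genes called, 77.7% were higher, and 53.7% under quantile normalization.

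Of 40 relatives in 6 families (C/EBP and bZIP, Ets, Runx, IRF, Id and E proteins, Gfi and Klf) 10 were higher in spleen and 10 lower, where 22.4% and 32.1% of all genes tested were. Of 12 other monocyte, macrophage and dendritic cell transcription factors, 10 were higher in spleen and 0 lower in limma (median 1.36, beside -0.17 over all genes), led by the oxysterol receptor gene Nr1h3 (3.0 ± 0.17 SE, adjusted p = 1.27e-07) and the dendritic cell factor Batf3 (2.45 ± 0.20 SE, adjusted p = 1.60e-06). The same list held Maf (2.06), a factor of macrophages. Of 10 progenitor transcription factors 1 was higher and 5 lower (median -0.24), with Myb at -2.18 ± 0.22 SE and Gata1 at -0.92 ± 0.33 SE. In the Ets family 3 of 8 were higher and 1 lower (median 0.19). Spic, the factor of red pulp macrophages, was 13.2-fold higher in spleen (3.72 ± 0.21 SE, adjusted p = 1.41e-07) and Spib, a factor of B cells and plasmacytoid dendritic cells, rose by 1.34 ± 0.29 SE (adjusted p = 0.00189).

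Runx3 was higher (1.69) and Runx2 lower (-0.79) among the 3 Runx family genes with Cbfb (median -0.19). Of 8 other IRF genes 2 were higher and 2 lower (median 0.15), with Irf5 at 0.87. Of 5 Id and E protein genes 2 were higher and 2 lower (median -0.14), with Tcf4 at 0.77 and Id3 at -0.66. Of 6 Gfi and Klf relatives 0 were higher and 2 lower in limma (median -0.52), Klf13 (-0.61) and Klf2 (-0.42). Of 10 C/EBP relatives and bZIP partners 2 were higher and 2 lower (median -0.03), with Cebpz at 0.43 and Fosl2 at -0.77.

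Genes known to take input from these factors were counted next. Of 17 measured granulocyte genes (of 18 listed; Azu1 had no probe), 16 were lower in spleen and 0 higher (median -1.77, beside -0.17 over all genes), with the azurophil granule proteases Elane (-3.62 ± 0.37 SE, adjusted p = 7.74e-06) and Ctsg (-3.21 ± 0.38 SE, adjusted p = 2.45e-05) the furthest. Csf3r was the 1 gene not called (-0.25 ± 0.14 SE, adjusted p = 0.165). Of 16 measured monocyte genes (of 17 listed; Cd68 had no probe), 9 were higher and 4 lower (median 0.54). Vcam1 was higher (2.04 ± 0.15 SE), as were Adgre1 (2.03) and Cx3cr1 (1.41), while Ncf1 (-2.56 ± 0.23 SE), Cybb (-1.56) and Csf2ra (-0.75) were among those lower; Ncf1 and Cybb encode parts of the NADPH oxidase that granulocytes also carry.

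Markers of other cells in the gate differed by tissue as well. All 5 natural killer cell markers were higher in spleen (median 2.99), with a summed level of 3.81 to 30.7 (median 17.7) in spleen and 0.759 to 3.0 (median 2.18) in bone marrow, Gzma the brightest. All 6 B cell markers were higher (median 1.41), with sums of 18.6 to 72.8 (median 41.4) and 1.65 to 27.3 (median 14.1), Cd79b the brightest. Of 6 T cell markers 4 were higher and 1 lower (median 2.05), with sums of 9.0 to 35.2 (median 18.8) and 14.3 to 24.2 (median 15.8), Cd3d the brightest and the 1 lower gene (-1.50). Of 6 dendritic cell markers 5 were higher (median 2.07), with sums of 40.2 to 83.9 (median 60.6) and 36.7 to 78.2 (median 53.1), Siglech the brightest and not called (-0.11). Xcr1 was not above background on any bone marrow array and passed the filter through spleen alone. The count of 5 and the median include it, so they are not support for a difference in Xcr1. Of 6 measured monocyte and macrophage markers (of 7; Ly6c2 had no probe) 5 were higher (median 1.11), with sums of 79.6 to 148.1 (median 110.5) and 48.8 to 78.4 (median 56.8), Csf1r the brightest.

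Of 7 basophil, mast cell and eosinophil markers 6 were lower (median -1.99), with sums of 2.26 to 7.43 (median 2.82) in spleen and 6.13 to 16.7 (median 10.8) in bone marrow, Prg2 the brightest. Of 6 mature neutrophil markers 1 was higher and 3 lower (median -0.48), with sums of 88.6 to 205.8 (median 146.4) and 173.5 to 287.2 (median 214.1), Csf3r the brightest. Of 5 stem and progenitor cell markers 1 was higher and 3 lower (median -1.91), with sums of 3.47 to 14.0 (median 5.99) and 12.3 to 18.8 (median 13.8), Cd33 the brightest. Erythroid markers were higher for 2 of 5 measured (of 6; Hbb-b1 had no probe), with sums of 5.87 to 49.7 (median 16.8) and 2.96 to 27.5 (median 9.65), Hba-a1 the brightest. Plasma cell markers were higher for 3 of 5, with sums of 30.2 to 89.3 (median 42.7) and 16.9 to 39.9 (median 21.4), Xbp1 the brightest. Fewer cells of a type and less RNA per cell cannot be told apart in these pools, and the part of these cells in the result was not tested.

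Of 8 cell cycle genes 7 were lower in spleen (median -1.69), with Top2a at -1.93 ± 0.21 SE and Mki67 at -1.90 ± 0.26 SE, and their summed level was 22.7 to 53.1 (median 33.8) in spleen and 47.8 to 97.3 (median 69.1) in bone marrow. Of 8 measured interferon-induced genes (of 10; Mx1 and Mx2 had no probe) 2 were higher, Ifi44 (1.62) and Isg15 (0.91), and the highest sum in each tissue was in WT at 1 week (181.6 in spleen and 278.8 in bone marrow), with the array labelled STAT6-KO spleen, 4 weeks, at 180.1. Of 9 immediate early genes 3 were higher and 1 lower (median 0.40), with Fosb at 1.19 and Ier2 at -1.22.

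The nearest profiles over the 22 arrays were sought for the 3 genes with the largest SD, Cebpe (1.09), Gfi1 (1.04) and Klf4 (0.88). Of 14070 genes compared, those with the smallest root-mean-square difference from Cebpe were Tmem216 (0.183), Rhou (0.194) and Mgst2 (0.205), where the median over all genes was 1.08. For Gfi1 they were Cdca7 (0.252), Spc25 (0.302) and Gtse1 (0.310), with a median of 1.03; Spc25 and Gtse1 act in mitosis. For Klf4 they were Agpat4 (0.377), Inpp5f (0.381) and Tubb6 (0.383), with a median of 0.993. These are descriptions with no test.

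The second question was how STAT6-KO and HDC-KO cells differ from WT within a tissue, matched by time. The STAT6-KO and HDC-KO comparisons share the WT arrays. In bone marrow, STAT6-KO cells had less Irf8 than WT cells at each matched time, with 2.30, 2.38 and 3.06 at control, 2 and 4 weeks beside 3.16, 2.91 and 3.62 in WT. It was the 1 gene of the 10 past the threshold, where 4.61% of all genes tested were (log2 difference -0.69 ± 0.15 SE, 1.61-fold lower, adjusted p = 0.0489, lower in 3 of 3 pairs). The 2 groups overlapped, as STAT6-KO at 4 weeks (3.06) stood above WT at 2 weeks (2.91) and at 1 week (2.52, with no STAT6-KO partner). Summed levels of other lists in the same arrays differed in a direction that changed between times. At control, 2 and 4 weeks B cell markers were 4.40, 7.02 and 16.7 in STAT6-KO beside 14.1, 13 and 15.7 in WT. Natural killer cell markers were 0.790, 1.08 and 2.35 beside 2.20, 2.51 and 1.55. Dendritic cell markers were 73.3, 69.8 and 53.1 beside 49.8, 55.4 and 78.2. Monocyte and macrophage markers were 54.9, 56.5 and 56.8 beside 68.6, 48.8 and 72.4. Interferon-induced genes were 8.79, 16.6 and 121.55 beside 23.8, 106.8 and 40.5. Their part in the result was not tested. The call was lost under the removal of any time point (adjusted p from 0.0724 to 0.240), and over the settings tried its adjusted p ran from 0.0307 to 0.612.

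Gfi1 stood at 3.05, 2.73 and 2.58 in STAT6-KO bone marrow at control, 2 and 4 weeks, above all 4 WT arrays (2.25, 2.24, 2.29 and 1.54), with a difference of 0.80 ± 0.18 SE (adjusted p = 0.0573). It passed where the filter kept probes above background on every array (adjusted p = 0.0363). At the matched times summed cell cycle genes were 79.8, 69.1 and 70.0 in STAT6-KO beside 69.1, 60.4 and 47.8 in WT. Their part in the result was not tested. Spi1 stood at 0.76, 0.73 and 0.69, below all 4 WT arrays (1.13, 2.00, 1.45 and 2.07), with a difference of -0.92 ± 0.25 SE (adjusted p = 0.0855), and passed under median scaling (-1.02, adjusted p = 0.0410). Runx1 (0.85 to 1.11, beside 1.12 to 1.89 in WT) was the third gene of the 10 whose 3 STAT6-KO and 4 WT arrays did not overlap, where 14% of all genes compared (3803 of 27085) did not. For Runx1 this held by its brighter probe, on which the groups nearly touched. The dimmer Runx1 probe gave 0.01 ± 0.22 SE in this comparison (adjusted p = 0.985 in limma with each probe tested on its own). Of the 10 genes 4 had an unadjusted p under 0.05, as did 22.4% of all genes tested, the fourth being Cebpa (-0.70 ± 0.28 SE, adjusted p = 0.204, lower in 3 of 3 pairs). Runx1, Cebpb, Cebpd, Cebpe, Klf4 and Id2 had adjusted p of 0.235 or more. The all-gene median was 0.07, and -0.03 under median scaling. Of all genes called in this comparison 86.4% were higher in STAT6-KO, and 68.2% under quantile normalization.

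In spleen, 0 of the 10 genes passed for STAT6-KO against WT in limma, where 1.95% of all genes tested did, 3 had an unadjusted p under 0.05 (22.9% of all genes did), and the methods' t-test called 0. The 3 were Spi1, with 0.56, -0.19, -0.68 and 0.58 at control, 1, 2 and 4 weeks beside 1.09, 0.61, -0.07 and 1.03 in WT (-0.60 ± 0.16 SE, adjusted p = 0.0872, lower in 4 of 4 pairs), Cebpe (-1.01 ± 0.36 SE, adjusted p = 0.153, lower in 3 of 4 pairs) and Irf8 (0.38 ± 0.14 SE, adjusted p = 0.156, higher in 4 of 4 pairs). Runx1, Cebpa, Cebpb, Cebpd, Gfi1, Klf4 and Id2 had adjusted p of 0.252 or more. The Cebpe pair differences ran from -2.16 at 4 weeks to 0.07 in control. The 4-week value (3.24 beside 5.41 in WT) comes from the array labelled STAT6-KO spleen, 4 weeks. Without that array the count was again 0. Of the genes called, 34.2% were higher, and 46.8% under quantile normalization.

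For HDC-KO against WT in spleen, 0 of the 10 passed in limma, where 2.8% of all genes tested did, 1 had an unadjusted p under 0.05 (22.6% of all genes did), and the methods' t-test called 0. That gene was Cebpe, at 4.72, 3.91 and 4.23 at 1, 2 and 4 weeks beside 5.93, 5.31 and 5.41 in WT (-1.08 ± 0.40 SE, adjusted p = 0.162, lower in 3 of 3 pairs). It passed where the STAT6-KO arrays were left out of the fit (-1.26, adjusted p = 0.0143), the 1 setting of those tried that gave a call, over which adjusted p ran from 0.0143 to 1. The WT control, with no HDC-KO partner, stood at 3.90. In the paired arrays stem and progenitor sums were 6.16, 3.83 and 3.47 beside 13.95, 11.1 and 5.99 in WT. Mature neutrophil sums were 122.5, 88.6 and 164.4 beside 157.3, 143.9 and 200.6. Interferon-induced sums were 60.4, 33.5 and 66.8 beside 181.6, 130.8 and 94.8. Sums of Itgam and Itgb2 were 33.8, 19.2 and 19.4 beside 42.7, 30.3 and 32.9. B cell sums were 18.6, 63.3 and 59.6 beside 18.6, 62.7 and 30.6. Their part in the result was not tested. Spi1, Runx1, Cebpa, Cebpb, Cebpd, Gfi1, Irf8, Klf4 and Id2 had adjusted p of 0.314 or more. The all-gene median was 0.06, and -0.105 under median scaling. Of the genes called, 73.3% were higher, and 51.9% under quantile normalization.

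In bone marrow, 0 of the 10 passed for HDC-KO against WT in limma, where 0.443% of all genes tested did, 2 had an unadjusted p under 0.05 (21.2% of all genes did), and the methods' t-test called 0. They were Gfi1, with 2.85, 3.29, 3.15 and 2.18 in HDC-KO beside 2.25, 2.24, 2.29 and 1.54 in WT (0.79 ± 0.16 SE, adjusted p = 0.109, higher in 4 of 4 pairs), and Klf4, with 1.66, 1.95, 1.57 and 2.89 beside 2.36, 2.78, 1.81 and 3.10 (-0.49 ± 0.18 SE, adjusted p = 0.197, lower in 4 of 4 pairs). In the same arrays summed cell cycle genes were 76.9, 97.3, 67.4 and 65.4 in HDC-KO beside 69.1, 56.8, 60.4 and 47.8 in WT. Their part in the result was not tested. Spi1, Runx1, Cebpa, Cebpb, Cebpd, Cebpe, Irf8 and Id2 had adjusted p of 0.275 or more.

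Among related genes in bone marrow, the E protein inhibitors Id1 (1.06 ± 0.14 SE, adjusted p = 0.0104) and Id3 (0.97 ± 0.21 SE, adjusted p = 0.0456) were the 2 of 5 Id and E protein genes called for STAT6-KO against WT, both higher, and Id1 the 1 of 5 called for HDC-KO, also higher (0.95 ± 0.13 SE, adjusted p = 0.0376). In STAT6-KO bone marrow 1 of 6 Gfi and Klf relatives, Klf13 (-0.79), 1 of 10 C/EBP relatives and bZIP partners, Junb, and 3 of 9 immediate early genes were lower and 0 higher in limma, with Fosb at -1.41 ± 0.29 SE and Junb at -1.15 ± 0.25 SE. In spleen, Ngp, which encodes a protein of neutrophil secondary granules, was the 1 granulocyte gene of 17 called for STAT6-KO against WT (-1.25 ± 0.20 SE, adjusted p = 0.0288). Its tissue difference also differed between STAT6-KO and WT (-1.67 ± 0.22 SE, adjusted p = 0.0191), in the fit that did not match genotypes by time. Cybb was the 1 monocyte gene of 16 called for HDC-KO against WT in spleen (-1.24 ± 0.26 SE, adjusted p = 0.0482). Under normexp background correction 0 genes were called lower in either spleen comparison, so these spleen calls of Ngp and Cybb were lost. Of all genes tested, 4.61% were called for STAT6-KO in bone marrow (1078 higher and 170 lower) and 0.443% for HDC-KO. The shares were 1.95% for STAT6-KO and 2.8% for HDC-KO in spleen, and 0.347% for the STAT6-KO tissue difference.

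The third question was the course after MI, each time compared with the same controls over genotypes. In spleen at 2 weeks Spi1 was lower than in control, at -0.07 in WT and -0.68 in STAT6-KO beside 1.09 and 0.56 in their controls, with HDC-KO at -0.08 and no HDC-KO control in use. In the same WT and STAT6-KO arrays summed B cell markers were 62.7 and 59.9 beside 21.5 and 41.4 in control, natural killer cell markers 30.7 and 11.4 beside 17.7 and 6.19, and monocyte and macrophage markers 89.95 and 101.6 beside 119.5 and 124.0, and their part in the result was not tested. It was the 1 gene of the 10 past the threshold, where 2.25% of all genes tested were (log2 difference -1.09 ± 0.21 SE, 2.13-fold lower, adjusted p = 0.0462, lower in 2 of 2 pairs, percentile 6.44). The all-gene median in this comparison was -0.13, and 0.13 under median scaling, where the call was lost (-0.83, adjusted p = 0.0680). Over the settings tried the difference ran from -1.20 to -0.83 and its adjusted p from 0.0305 to 0.788, and the call was also lost without any 1 genotype (adjusted p from 0.0760 to 0.369). By time, the spleen levels of Spi1 were in the order control, 4 weeks, 1 week and 2 weeks in WT, with 4 weeks and control nearly level in STAT6-KO. Id2 and Spi1 had an unadjusted p under 0.05 (2 of 10), as did 23.7% of all genes tested (Id2 -0.82 ± 0.28 SE, adjusted p = 0.137, lower in 2 of 2 pairs). Runx1, Cebpa, Cebpb, Cebpd, Cebpe, Gfi1, Irf8 and Klf4 had adjusted p of 0.272 or more. Of all genes called, 8.91% were higher, and 52.5% under median scaling. Under normexp background correction 0 genes were called.

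At 1 week in spleen, 0 of the 10 passed in limma, where 7.9% of all genes tested did, and 2 had an unadjusted p under 0.05, as did 27.4% of all genes. Cebpe was 5.93 in WT and 4.49 in STAT6-KO at 1 week beside 3.90 and 3.97 in their controls, with HDC-KO at 4.72 (1.30 ± 0.48 SE, adjusted p = 0.126, higher in 2 of 2 pairs, percentile 98.8). It passed without the array labelled STAT6-KO spleen, 4 weeks (1.39, adjusted p = 0.0498) and without all STAT6-KO arrays (2.05, adjusted p = 0.0153), and over the settings tried its adjusted p ran from 0.0153 to 0.677. Spi1 was the other (-0.60 ± 0.21 SE, adjusted p = 0.117, lower in 2 of 2 pairs). Gfi1 stood at 1.96 in WT and 0.89 in STAT6-KO beside 0.01 and 0.44 (0.97 ± 0.45 SE, adjusted p = 0.209, higher in 2 of 2 pairs). Runx1, Cebpa, Cebpb, Cebpd, Irf8, Klf4 and Id2 had adjusted p of 0.297 or more. The all-gene median was -0.16, with 0.14 under median scaling and 0.31 under normexp background correction. Of the genes called, 20.6% were higher, and 58.8% under median scaling, while under normexp 0 genes were called.

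In the same comparison 3 of 17 granulocyte genes were higher and 0 lower in limma (median 0.50), with Fcnb at 2.62 ± 0.48 SE (adjusted p = 0.0228) and Elane at 1.88 ± 0.41 SE (adjusted p = 0.0356), and 3 of 8 cell cycle genes were higher (median 1.14), with Mcm5 at 1.61 ± 0.25 SE and Mki67 at 1.39 ± 0.34 SE. The oxidase genes Ncf1 (1.56) and Cybb (1.22) were higher, the 2 called of 16 monocyte genes. Of 12 monocyte, macrophage and dendritic cell transcription factors 1 was called at 1 week and 1 at 2 weeks, both times Zbtb46, a factor of classical dendritic cells, lower at 1 week (-2.22 ± 0.26 SE, adjusted p = 0.00864) and at 2 weeks (-1.82 ± 0.26 SE, adjusted p = 0.0278). Of 8 Ets genes 1 was lower at 1 week, Elf4 (-1.15). At 2 weeks 2 of 9 immediate early genes were lower, Junb (-0.97) and Dusp1 (-0.91), and Junb was also the 1 called of 10 C/EBP relatives and bZIP partners. Of 6 T cell markers 4 were lower at 1 week (median -1.39). Under normexp background correction 0 genes were called in spleen at 1 week or at 2 weeks, so these calls of list genes were lost at both times. Natural killer cell sums were 9.34 in WT and 3.81 in STAT6-KO at 1 week beside 17.7 and 6.19 in control. In the WT array at 1 week the stem and progenitor sum was 14.0 beside 5.94 in its control, and the interferon-induced sum 181.6 beside 38.3. In STAT6-KO these sums were 5.23 beside 6.62 and 34.1 beside 21.3, and the part of any of them in the result was not tested.

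At 4 weeks in spleen, 0 of the 10 passed in limma, where 0% of all genes tested did and 2303 (8.7%) had an unadjusted p under 0.05. Of the 10, 1 had an unadjusted p under 0.05, Klf4, which stood at 4.35 in WT and in STAT6-KO beside 3.39 and 2.90 in their controls, with HDC-KO at 4.25 (1.07 ± 0.31 SE, adjusted p = 0.447, higher in 2 of 2 pairs). The summed immediate early genes in these arrays were 285.3 in WT, 344.9 in STAT6-KO and 259.5 in HDC-KO, the 3 highest of spleen, beside 196.5 and 190.8 in the WT and STAT6-KO controls, and their part in the result was not tested. Spi1, Runx1, Cebpa, Cebpb, Cebpd, Cebpe, Gfi1, Irf8 and Id2 had adjusted p of 0.608 or more.

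**Figure D3:**
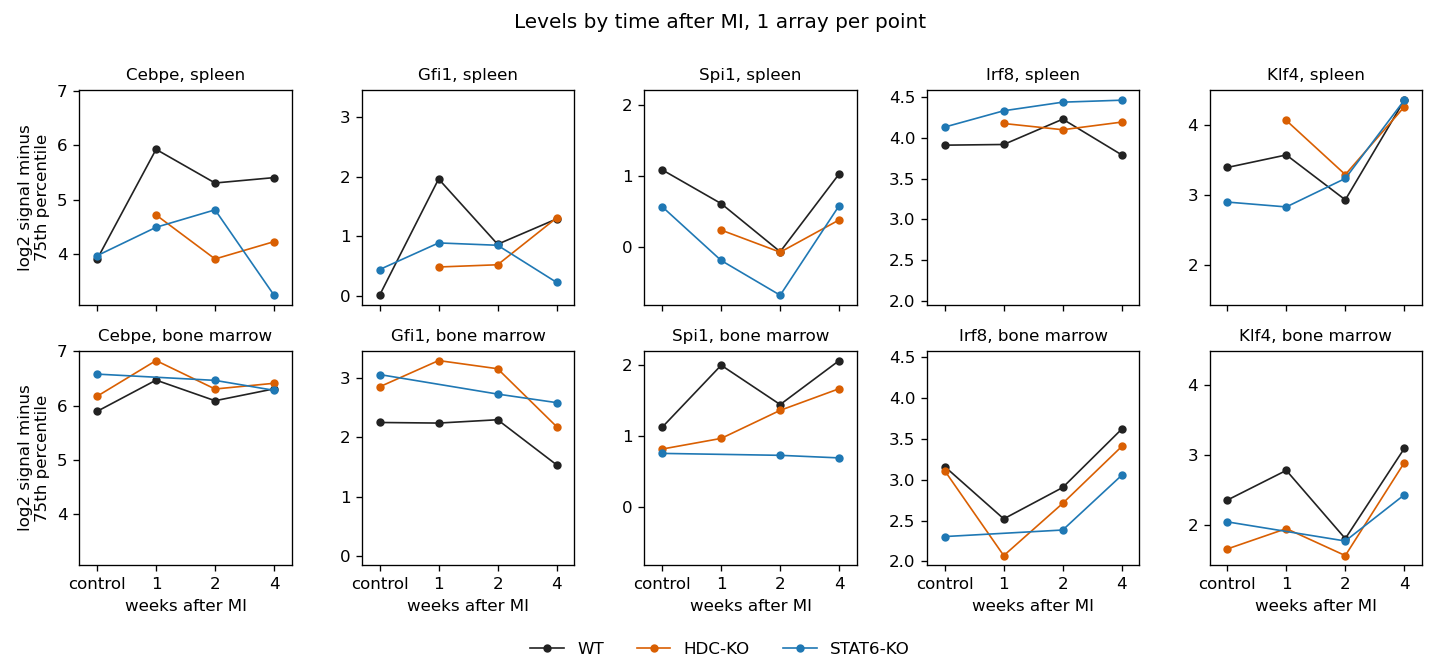
Level of Cebpe, Gfi1, Spi1, Irf8 and Klf4 (log2 signal minus the array's 75th percentile, vertical axis) in control and 1, 2 and 4 weeks after MI, with spleen above and bone marrow below, 1 array per point and 1 line per genotype. In spleen at 2 weeks Spi1 stood at -0.07 in WT, -0.08 in HDC-KO and -0.68 in STAT6-KO, and in bone marrow Irf8 was lowest at 1 week in WT (2.52) and HDC-KO (2.07).

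In bone marrow at 1 week, 0 of the 10 passed in limma, where 0.148% of all genes tested did, and 2 had an unadjusted p under 0.05, as did 19.7% of all genes. Irf8 stood at 2.52 in WT and 2.07 in HDC-KO beside 3.16 and 3.11 in their controls (-0.75 ± 0.18 SE, adjusted p = 0.116, lower in 2 of 2 pairs), and Cebpe at 6.47 and 6.83 beside 5.90 and 6.17 (0.52 ± 0.19 SE, adjusted p = 0.208, higher in 2 of 2 pairs). In the same arrays summed B cell markers were 1.65 and 5.0 beside 14.1 and 27.3, and natural killer cell markers 0.759 and 1.15 beside 2.20 and 3.0, and their part in the result was not tested. Spi1, Runx1, Cebpa, Cebpb, Cebpd, Gfi1, Klf4 and Id2 had adjusted p of 0.279 or more. At 2 weeks, 0 of the 10 passed in limma, where 0% of all genes tested did and 2025 (7.48%) had an unadjusted p under 0.05. By the brightest probe of each gene, Id2 alone of the 10 had an unadjusted p under 0.05 (-0.51 ± 0.19 SE, adjusted p = 0.664, lower in 3 of 3 pairs), and Spi1, Runx1, Cebpa, Cebpb, Cebpd, Cebpe, Gfi1, Irf8 and Klf4 had adjusted p of 0.720 or more. The dimmer Runx1 probe stood at 0.62 ± 0.23 SE in limma with each probe tested on its own (unadjusted p = 0.030, adjusted p = 0.654).

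At 4 weeks in bone marrow, 0 of the 10 passed in limma, where 0% of all genes tested did and 5187 (19.1%) had an unadjusted p under 0.05. Of the 10, 5 had an unadjusted p under 0.05. Klf4 stood at 3.10, 2.89 and 2.43 in WT, HDC-KO and STAT6-KO beside 2.36, 1.66 and 2.05 in their controls (0.78 ± 0.21 SE, adjusted p = 0.119, higher in 3 of 3 pairs, with immediate early sums of 221.7, 187.6 and 160.2 beside 149.4, 170.1 and 114.1), and Irf8 at 3.62, 3.41 and 3.06 beside 3.16, 3.11 and 2.30 (0.50 ± 0.15 SE, adjusted p = 0.150, higher in 3 of 3 pairs). Runx1 (0.75 ± 0.23 SE, adjusted p = 0.152, higher in 3 of 3 pairs), Gfi1 (-0.62 ± 0.19 SE, adjusted p = 0.151, lower in 3 of 3 pairs) and Id2 (-0.45 ± 0.19 SE, adjusted p = 0.257, lower in 3 of 3 pairs) were the others. Spi1, Cebpa, Cebpb, Cebpd and Cebpe had adjusted p of 0.274 or more. By time, Irf8 in bone marrow was in the order 4 weeks, control, 2 weeks and 1 week in WT and in HDC-KO, while in STAT6-KO it was 4 weeks (3.06), 2 weeks (2.38) and control (2.30).

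Promoter sequence was read for the 7 of the 10 genes with an entry in the promoter table of RefSeq genes, which gave 10 entries of 300 bases on build GRCm38.p6; Spi1, Cebpd and Cebpe had no entry. Motifs, chosen after the data were seen, were searched on both strands: the STAT site TTCNNNGAA, its wider form TTCNNNNGAA, the PU.1 core GAGGAA, the C/EBP form TTGCNNAA and the Runx site TGTGGT. Of all 32851 promoters 8.30%, 6.95%, 28.3%, 10.8% and 16.8% held them in that order. The upstream Irf8 entry held 2 matches of TTCNNNGAA, the upstream Gfi1 entry 1 of TTGCNNAA and the upstream Runx1 entry 2 of TGTGGT, shown in capitals as read on the gene's strand (ACCACA is TGTGGT on the other strand). The first entries of Irf8, Gfi1 and Klf4 are printed because the tissue call of these genes was kept in every setting tried, and that of Runx1 as the contrast of a gene with no call; the printed Klf4 entry holds no motif and no capitals. The entries of Cebpa, Cebpb, Id2 and Klf4 and the downstream entries of Irf8 and Gfi1 held none of the 5 motifs, and the downstream Runx1 entry held 1 GAGGAA. A match is a description of the sequence, not a bound site. The coordinates are chr8:120736108-120736407 (+) for Irf8, chr5:107725756-107726055 (-) for Gfi1, chr4:55532426-55532725 (-) for Klf4 and chr16:92826025-92826324 (-) for Runx1.
Irf8: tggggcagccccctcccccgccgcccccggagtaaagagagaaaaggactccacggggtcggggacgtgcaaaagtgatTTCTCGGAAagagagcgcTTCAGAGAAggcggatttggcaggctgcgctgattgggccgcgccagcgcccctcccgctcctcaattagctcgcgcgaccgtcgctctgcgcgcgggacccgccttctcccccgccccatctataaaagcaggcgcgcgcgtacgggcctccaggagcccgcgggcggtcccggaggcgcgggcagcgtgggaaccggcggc
Gfi1: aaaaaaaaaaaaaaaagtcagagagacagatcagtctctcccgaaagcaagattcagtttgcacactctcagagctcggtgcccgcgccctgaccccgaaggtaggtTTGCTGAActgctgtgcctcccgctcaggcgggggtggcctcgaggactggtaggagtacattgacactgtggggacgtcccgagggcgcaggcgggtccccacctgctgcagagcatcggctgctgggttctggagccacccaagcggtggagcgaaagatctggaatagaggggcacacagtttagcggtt
Klf4: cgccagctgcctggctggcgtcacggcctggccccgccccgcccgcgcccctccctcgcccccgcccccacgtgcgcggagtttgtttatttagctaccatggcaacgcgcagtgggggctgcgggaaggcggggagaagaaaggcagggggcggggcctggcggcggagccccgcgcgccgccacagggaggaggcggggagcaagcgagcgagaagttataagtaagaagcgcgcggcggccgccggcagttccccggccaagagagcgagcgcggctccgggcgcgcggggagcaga
Runx1: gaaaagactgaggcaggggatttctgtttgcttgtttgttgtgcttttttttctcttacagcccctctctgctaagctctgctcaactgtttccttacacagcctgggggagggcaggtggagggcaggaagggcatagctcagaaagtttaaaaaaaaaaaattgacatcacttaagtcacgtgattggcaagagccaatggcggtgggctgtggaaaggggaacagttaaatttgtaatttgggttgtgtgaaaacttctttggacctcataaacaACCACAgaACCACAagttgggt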

How the data were processed

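RNA of CD11b+ cells was hybridised to 24 one-colour Agilent arrays, and the deposited files hold, per the file headers, the processed signal (gProcessedSignal), a linear background-subtracted intensity, as the authors obtained it with Agilent Feature Extraction 11.0.1.1. The submitters' processing notes name GCRMA, with no version, and GCRMA values were not used here. Control spots (by type) and outlier spots (3055) were left out, replicate spots of a probe were averaged, and each array was centred on its 75th percentile on the log2 scale. Symbols came from RefSeq transcripts, and the probe with the highest mean stood for a gene. Signals were well above background for 70.4% to 79.8% of non-control spots per array.

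Probes well above background on at least 2 arrays of a fit were tested in limma 3.58.1 (R 4.3.3, with the data.table package, version 1.17.8), with Benjamini-Hochberg adjustment over all genes tested and an adjusted p under 0.05 as the threshold. Tissue was fitted within 10 pairs of the same genotype and time, genotype and time additively over the 11 arrays of a tissue, and the difference of tissue differences within pairs. That last fit had no tissue-by-time term. An exact two-sided sign-flip test was run over the 10 pairs. Tables and figures used Python 3.11.15, pandas 2.3.3 and matplotlib 3.10.9. The fits were tested on simulated data.

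Every one of the 10 genes is named in each comparison. From each list of related, target or state genes at most the 2 called genes with the largest absolute difference are named, with counts for the whole list (some genes this rule names are not reported here); for the 3 genes with the largest SD, the 3 nearest profiles are named. Stat6, Hdc, Xist, Ddx3y, Eif2s3y and Kdm5d are named as label checks. Maf, Adgre1, Cx3cr1, Cybb, Csf2ra, Csf3r, Cd3d, Siglech and the brightest marker genes in the tissue comparison were named after their values were seen. The 10 genes and the lists were chosen with earlier results of these data known. Alternatives were normexp background correction (offset 50), quantile normalization, median scaling, the percentile over detected probes, a floor, the mean over probes, other filters, each probe on its own, no block, slide as a random block (estimated correlation 0.135), only the groups compared, the methods' t-test (with a fold threshold of 2), and leaving out pairs, times or genotypes. The 2 incomplete arrays were left out.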

Additional observations from a re-analysis of the deposited data

Results flagged for a closer look

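For 4 results the differences of all pairs had 1 sign in spleen and the other in bone marrow, and no explanation was sought. The share of all genes with such a split is not given here, so the count of 4 says nothing particular about these genes. At 1 week the spleen pairs were of WT and STAT6-KO and the bone marrow pairs of WT and HDC-KO, so the 2 tissues share only WT. Spi1 at 1 week after MI against control differed by -1.131 between spleen (mean of pairs -0.62, n = 2) and bone marrow (0.51, n = 2), and the difference was not tested. Irf8 at 1 week after MI against control differed by 0.9437 between spleen (0.10, n = 2) and bone marrow (-0.84, n = 2), the WT spleen pair at 0.01, almost level, and the difference was not tested. Cebpe in HDC-KO against WT differed by -1.5 between spleen (-1.26, n = 3) and bone marrow (0.24, n = 4), and the limma test of the tissue difference in HDC-KO against that in WT gave -1.18 ± 0.41 SE (adjusted p = 0.225). Irf8 in STAT6-KO against WT differed by 1.026 between spleen (0.38, n = 4) and bone marrow (-0.65, n = 3), and the same test for STAT6-KO gave 0.85 ± 0.39 SE (adjusted p = 0.382). Neither limma test of the tissue difference matched genotypes by time.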

How the results depend on the processing

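The 13 counts of genes called were recomputed under 195 alternatives, of which 171 left a count the same or nearly so and 24 moved it. Values of single genes called in the reported fits kept their direction in all 243 alternatives, 204 past the threshold and 39 not; among genes not called, 6 of 1577 alternatives passed the threshold and 86 changed sign without a call on either side. For spleen against bone marrow (9 called) the methods' t-test, whose fold threshold removes smaller differences, called 4 (Cebpe, Gfi1, Irf8 and Klf4; 8 after Benjamini-Hochberg adjustment with no fold threshold), and 8 to 9 were called with any 1 pair left out. Without the WT, HDC-KO or STAT6-KO pairs, alternatives chosen after seeing the data, 7 were called each time; Cebpb was lost in all 3, Cebpa without WT or STAT6-KO pairs and Id2 without HDC-KO pairs (adjusted p = 0.0598). For STAT6-KO against WT in bone marrow (1 called) the count was 2 under median scaling, under the floor and with probes above background on every array. It was 0 under normexp, the mean over probes, no filter, only 2 genotypes and the methods' t-test, and 0 to 0 with any 1 time left out. For HDC-KO against WT in spleen (0 called) the count was 1 with only 2 genotypes. For 1 week after MI in spleen (0 called) it was 1 without the array labelled STAT6-KO spleen, 4 weeks, and 0 to 1 with any 1 genotype left out. For 2 weeks after MI in spleen (1 called) it was 0 under normexp, quantile normalization, median scaling, no filter and only 2 time points, and 0 to 0 with any 1 genotype left out. Fewer arrays or more genes tested are part of the left-out, 2-group and no-filter settings; for the other settings the cause was not tested. The leave-outs that left 1 array in an arm used the spread pooled over the other groups.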
